A study of Drosophila melanogaster with 28 samples.

Results

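The 7 genes described here encode the E-cadherin adhesion complex and the gap junction proteins with which germ cells of the Drosophila ovary attach to their niche and exchange small molecules with it. They were chosen by name: shg, arm, alpha-Cat and p120ctn for adhesion, and zpg, ogre and Inx2 for gap junctions. All 7 had a row in both deposited expression tables, the RNA-seq table with 17783 genes and the Ribo-seq table with 13968, of which 13884 stand in both. Every one of the 7 passed 10 FPKM at every time point in both assays.

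The samples were whole adult ovaries of 1 genotype. All groups, the unshocked one included, were w, were homozygous for the mutant allele bam86, and carried the heat-inducible bam transgene P{w[+mC]=hs-bam.O}11d together with the driver nosP-GAL4-NGT40/+, in which a nos promoter makes GAL4 in germ cells. Without Bam the ovary fills with germline stem cell-like cells, and the heat shock supplies Bam and starts their differentiation. Females were held at 37 C for 1 h and 34 C for 2 h, returned to 25 C and sampled at 0.5, 5, 9, 18, 28 or 38 h after heat shock (AHS), beside females with no heat shock (no HS). By the study's staging these times stand for stem cell-like cells at no HS, then cystoblasts at 5 h and cysts of growing cell number to 38 h AHS, with mixed stages at the later times. Each time point had 2 replicates per assay, so 14 RNA-seq and 14 Ribo-seq libraries in all, each made from pooled ovaries. The labels give no age, and by the study's methods newly collected females were fed yeast for some days before the shock.

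The deposited values are 1 FPKM per gene and time point, estimated by the authors over both replicates, with 95% bounds. FPKM (fragments per kilobase of length, scaled to the size of the library) is a level per length, so it can be set side by side between genes. For RNA-seq the length is that of the transcript. Ribo-seq counts fragments protected by ribosomes (footprints), and its table lists coding spans. Since no value per replicate was at hand, no SD, n or p is given, and the differences below are measured against the bounds, which for the 7 genes lay 18.6% to 25.3% from the RNA-seq value and 21.0% to 26.7% from the Ribo-seq value. The bounds come from the authors' model and are not a spread between replicates. A gene was called changed, and is said to have risen or fallen, where 2 time points differed by more than 1.6-fold with more than 10 FPKM in at least one of them. The 0.5 h sample was taken straight after the heat shock and is kept apart from the 6 time points of differentiation. All changes against no HS share the same no HS value.

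E-cadherin, encoded by shg, is a transmembrane protein that binds its own kind on the neighbouring cell and holds stem cells at the cap cells of the niche. Its tail binds beta-catenin, in flies the product of arm, which in turn binds alpha-catenin and through it actin, while p120-catenin binds the tail nearer the membrane. Innexins are the gap junction proteins of invertebrates. The product of zpg (zero population growth, innexin 4) is the innexin of germ cells and is required for their survival and early differentiation, whereas ogre (innexin 1) and Inx2 (innexin 2) are known from epithelia and from the somatic cells that wrap the germ cells, where Inx2 channels dock to those of zpg.

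The innexins are related in sequence, which bears on whether short footprints can be placed on 1 gene. Shown are the coding bases around the signature of the family, a run of tyrosine, tyrosine, glutamine and tryptophan that all 5 innexins measured above 10 FPKM here carry, with its 4 codons in capitals. The sequences are RefSeq's Release 6 reference, read on the coding strand, from 3L:6605509-6605538 (minus strand) for zpg, X:6976038-6976067 (minus) for ogre and X:6999441-6999470 (plus) for Inx2.
zpg: tacataaccTACTATCAGTGGgtcgtgctg
ogre: tactacaccTACTACCAGTGGgtgtgcttc
Inx2: taccacaagTACTACCAGTGGgtgtgcttc
In these capitals ogre and Inx2 had 0 differing bases and zpg differed from either by 1 base. Across their translated coding sequences zpg shared 40.8% of aligned residues with Inx2 and 34.7% with ogre, and ogre and Inx2 shared 49.2%. No run of 28 bases, the lower end of the footprint sizes selected, occurred in the coding sequences of any 2 of the 5 innexins (0 shared runs in each of 10 pairs). The longest coding form of each was compared. Footprints of that size within these forms that match the reference without error belong to 1 of these 5 innexins only. Shorter reads, other coding forms and the innexins Inx5, Inx6 and shakB were not compared.

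Of the 7 genes, zpg was the only one called higher against no HS late in the time course, in its footprints at 28 and 38 h AHS and in its mRNA at 28 h alone. The gene zpg (FBgn0024177, 3L 6604366-6606032, minus strand) had an RNA-seq level of 75.6 FPKM with no HS, followed in order of time by 71.2 (0.5 h), 71.6 (5 h), 71.4 (9 h), 96.9 (18 h), 122 (28 h) and 120.4 FPKM (38 h AHS). Up to 9 h AHS the level was within log2 0.09 of the no HS value, and the 3 later values were above it. At 28 h AHS the mRNA was 1.62-fold that at no HS, a log2 change of 0.69 with an interval from 0.21 to 1.18, and the bounds of the 2 values, 56.7 to 94.4 and 94.5 to 149.5 FPKM, just missed each other. At 38 h the change of 1.59-fold (log2 0.67, 0.18 to 1.16) did not reach the threshold. The call at 28 h is lost when each time point is rescaled to the same median, which lowers that log2 change to 0.66. Measured from 9 h AHS, where differentiation had begun but the level had not moved, the mRNA was 1.69-fold higher at 38 h (log2 0.75, 0.27 to 1.24), which was called.

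The footprints of zpg were listed at 211 FPKM with no HS and then at 174 (0.5 h), 215 (5 h), 249.8 (9 h), 255 (18 h), 341 (28 h) and 359 FPKM (38 h AHS). They were lowest right after the heat shock and highest at the last 2 times, whose bounds did not overlap those at no HS. Against no HS the footprints had risen 1.61-fold at 28 h (log2 0.69, 0.25 to 1.13) and 1.70-fold at 38 h AHS (log2 0.76, 0.32 to 1.2). From 9 to 38 h AHS the difference was 1.44-fold (log2 0.52, 0.07 to 0.97), with overlapping bounds and no call. Over the 6 time points other than 0.5 h the largest value was, in the 2 assays, 1.7 to 1.71 times the smallest, which exceeded the same ratio in 95.4% of the 5842 genes compared for RNA-seq and 76.9% of the 5559 for Ribo-seq.

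At the genome level zpg sits inside an intron of Rexo5, a gene on the other strand (3L 6603684-6608739), and the RNA-seq table gives both the locus of Rexo5. The RNA libraries were made with a directional kit, and whether the counting used strand is not given in the sources used here. Rexo5 mRNA was 22.4 FPKM at no HS and 21.7 at 38 h AHS (log2 -0.05, -0.72 to 0.62), and its level at 28 h, 18.8 FPKM, was its lowest, so the host gene was not called in either direction at the times when zpg was high. In the Ribo-seq the coding spans of the pair do not overlap.

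In bulk tissue more germ cells and more RNA per germ cell cannot be told apart. The mRNA of vas, a helicase found in all germ cells, was listed at 205 FPKM at no HS and 211 at 38 h AHS, and its footprints at 391 and 355. The summed FPKM of the 8 germline markers listed (vas, nos, aub, otu, ovo, AGO3, tej, piwi) was 978 at no HS, 805 at 9 h and 1160.0 at 38 h AHS in the RNA-seq and 1353, 1329.7 and 1501 in the Ribo-seq. Of these 8, all exceeded 10 FPKM at no HS. At 9 h AHS the only one called in the RNA-seq was nos, lower with 28.5 FPKM against 83.3 at no HS. In the Ribo-seq nos (112 to 11.9 FPKM) and ovo (71.6 to 41.3 FPKM) were called lower at 9 h, and the other markers were not called. The markers differed among themselves: the mRNA of piwi, which somatic cells of the ovary also make, was at 224 FPKM at no HS and 348 at 38 h AHS and that of ovo at 79.5 and 124, neither called at 38 h, whereas aub (99.1 and 96.4), AGO3 (185 and 188) and vas stayed near their start. The ratio of zpg to vas was 0.369 (0.263 to 0.516) at no HS and 0.57 (0.411 to 0.793) at 38 h AHS in the RNA-seq, intervals that overlap, and 0.542 (0.398 to 0.736) and 1.01 (0.737 to 1.39) in the Ribo-seq, intervals that meet without overlapping. Against piwi the ratio was 0.338 (0.244 to 0.469) and 0.346 (0.254 to 0.471) by RNA-seq and 0.547 (0.403 to 0.742) and 0.612 (0.447 to 0.838) by Ribo-seq at the same times, so zpg mRNA and piwi mRNA were higher by a like factor. Against the sum of the 8 markers it was 0.0773 (0.0593 to 0.101) and 0.104 (0.0812 to 0.133) by RNA-seq and 0.156 (0.124 to 0.197) and 0.239 (0.187 to 0.305) by Ribo-seq, with overlapping intervals in both. The part of germ cell number in the rise of zpg was not tested.

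**Figure D1:**
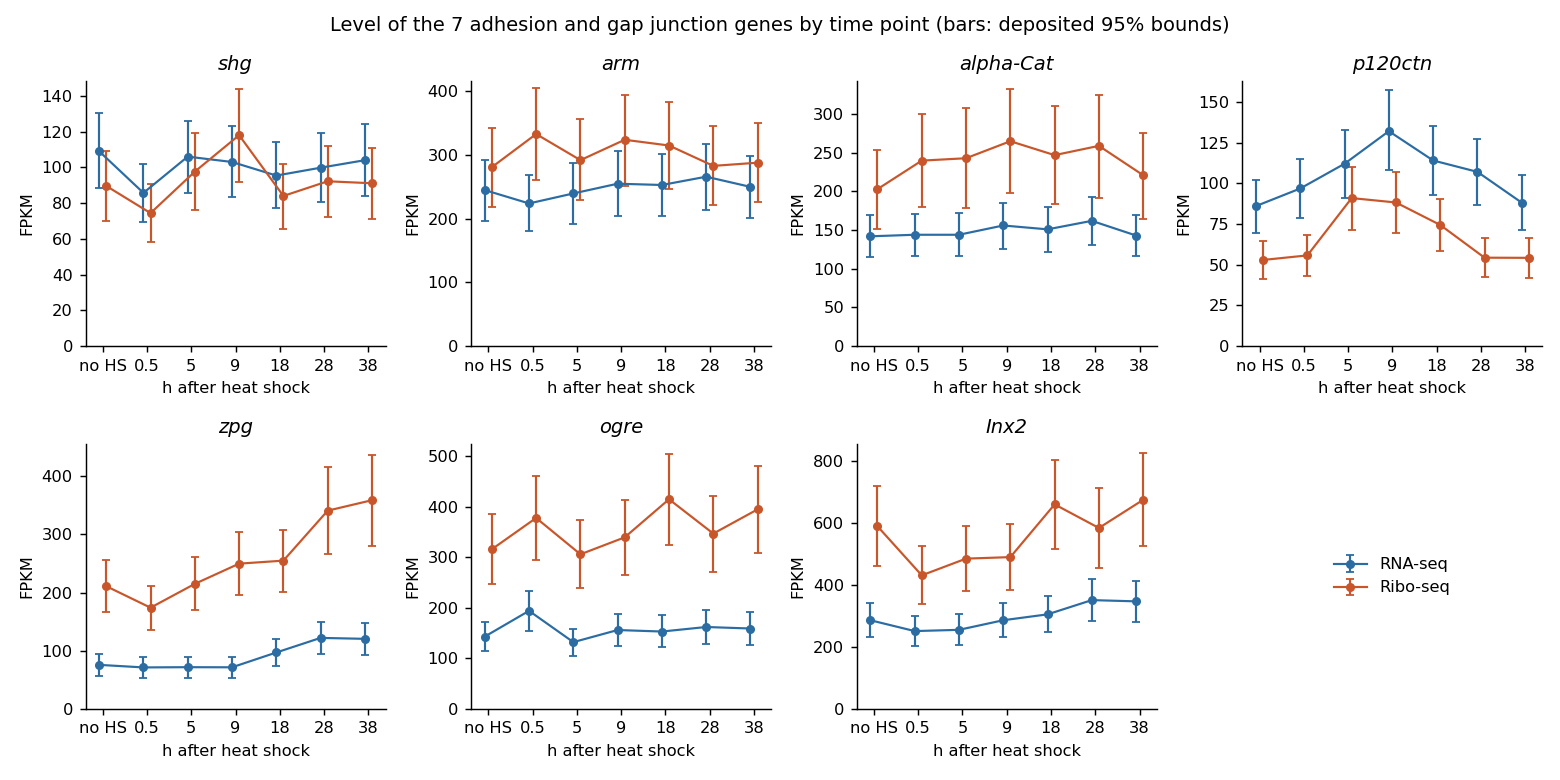
Level of each of the 7 genes in FPKM (y axis, from 0, its own scale in each panel) at no HS and at 6 times after heat shock (x axis, in h, not to scale), blue for RNA-seq and orange for Ribo-seq, with bars for the deposited 95% bounds of the 1 value per time point. The footprints of zpg climb from 211 to 359 FPKM, p120ctn peaks at 5 to 9 h AHS and returns, and the other 5 genes have overlapping bounds among the 6 time points other than 0.5 h.

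Neither ogre nor Inx2, the innexin genes known from somatic cells, was called at any time. The highest values of the set were those of Inx2. Its mRNA (FBgn0027108, X 6998672-7004151, plus strand) was at 286 FPKM with no HS, followed by 251 (0.5 h), 255 (5 h), 286 (9 h), 305 (18 h), 351 (28 h) and 347 FPKM (38 h AHS). Its Ribo-seq levels were 589.5, 431, 485, 489.9, 660.2, 584 and 675 FPKM at the same times. Both assays were low at 0.5 and 5 h and the mRNA was highest at 28 and 38 h AHS, but all 15 pairs among the 6 time points had overlapping bounds in each assay. At 38 h the log2 changes of Inx2 against no HS were 0.28 (-0.11 to 0.67) by RNA-seq and 0.20 (-0.25 to 0.64) by Ribo-seq.

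The level of ogre (FBgn0004646, X 6973620-6991318, minus strand) was 143 FPKM in the RNA-seq at no HS, then 194, 132, 156, 153, 162 and 159 FPKM from 0.5 to 38 h AHS. The high value was the one taken 0.5 h after heat shock (log2 0.44, 0.03 to 0.84), and the next sample at 5 h was the lowest. In the Ribo-seq ogre was listed at 316, 378, 306, 339.6, 415, 347 and 395 FPKM, with the maximum at 18 h and overlapping bounds in all 15 pairs. The ratio of ogre to Inx2 was 0.502 (0.382 to 0.661) in the RNA-seq at no HS, 0.775 (0.587 to 1.02) at 0.5 h and 0.459 (0.347 to 0.607) at 38 h AHS. At 0.5 h AHS the mRNA of Inx2 was at log2 -0.19 (-0.58 to 0.2) against no HS. In the Ribo-seq ogre was at log2 0.26 (-0.19 to 0.7) and Inx2 at -0.45 (-0.9 to -0.01). Neither gene was called, and the bounds of each overlapped those at no HS. The intervals of the ratio at no HS and 0.5 h overlapped too, so opposite movement cannot be read. Another gene, bou, lies inside ogre on the other strand.

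Among the other innexin genes of the fly, Inx3 and Inx7 were also expressed. The RNA-seq level of Inx3, a partner of Inx2 in epithelial channels, ran over the 6 time points of differentiation from 109.8 FPKM at no HS to 130.3 at 38 h AHS, and its Ribo-seq level from 229 at 9 h to 305 at 38 h, with all bounds overlapping. Footprints on Inx7, which lies between ogre and Inx2 on X, were 91.1 FPKM at no HS, fell short of the call at 9 h (67.4 FPKM, log2 -0.43, -0.9 to 0.03) and stood at 121 FPKM at 38 h AHS, 1.79-fold above 9 h (log2 0.84, 0.39 to 1.3). Its mRNA at the same times was 48.7, 50.1 and 51.9 FPKM, and 35.5 FPKM at 5 h. Its translation efficiency was called higher at 38 h than at 9 h AHS (1.73-fold), a comparison in which 547 of 6256 genes were called. That efficiency had no steady course: 1.87 at no HS, then 2.48 (5 h), 1.35 (9 h), 2.2 (18 h), 1.69 (28 h) and 2.33 (38 h AHS). It was called lower from 5 to 9 h (log2 -0.88, -1.48 to -0.29). At 38 h against no HS it was not called (log2 0.32, -0.27 to 0.9). Inx5 and Inx6 stayed below 1 FPKM in both assays, and shakB, an innexin of neurons and muscle, was between 3.99 and 6.7 FPKM in the RNA-seq and below 1 FPKM in the Ribo-seq.

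Of the summed FPKM of these 8 innexin genes, zpg took 11.3% of the mRNA at no HS, 10.5% at 9 h and 14.8% at 38 h AHS, and 14.3%, 18.1% and 19.3% of the footprints. Inx2 took the largest share in both assays at all 7 times, between 37.3% and 42.6% of the mRNA. The summed zpg to somatic innexin ratio (ogre, Inx2, Inx3 and Inx7 as denominator) went from 0.129 (0.0977 to 0.169) at no HS to 0.175 (0.135 to 0.226) at 38 h in the RNA-seq and from 0.167 (0.131 to 0.214) to 0.24 (0.186 to 0.308) in the Ribo-seq, with overlapping intervals in both. At 28 h the Ribo-seq ratio was 0.259 (0.202 to 0.334). The share of zpg therefore moved less clearly than its level.

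**Figure D2:**
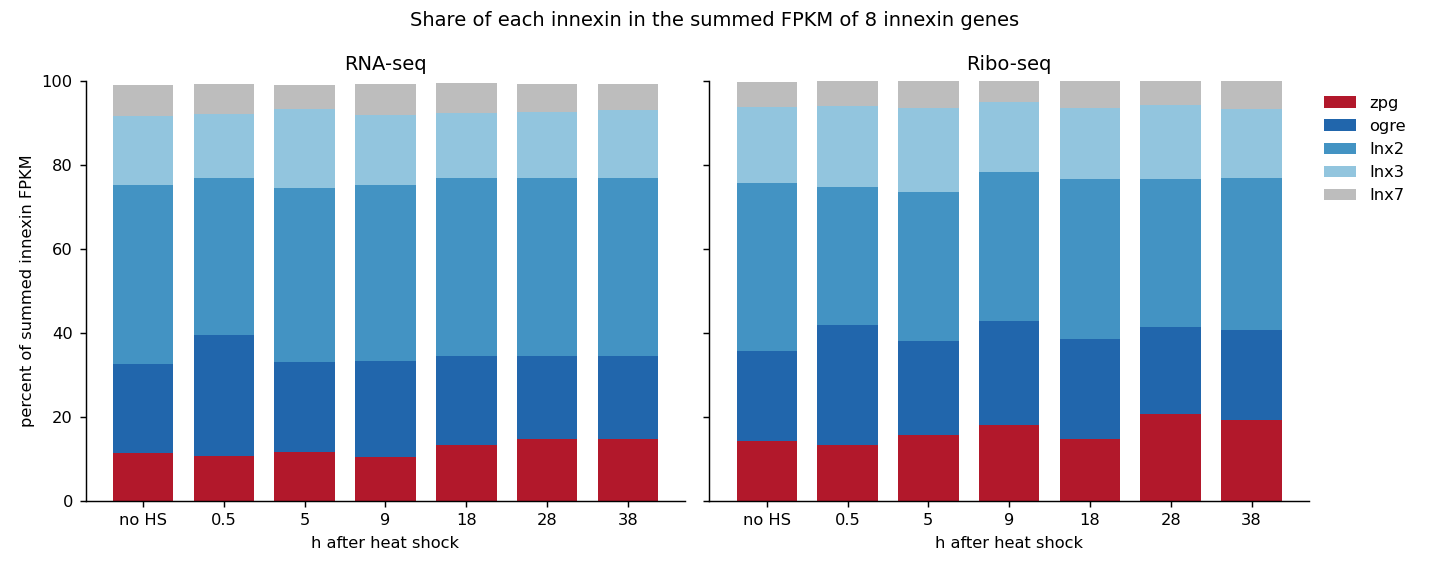
Share of 5 innexin genes (stacked colours, percent of the summed FPKM of 8 innexin genes on the y axis, from 0 to 100) at no HS and at 6 times after heat shock (x axis, in h), with RNA-seq on the left and Ribo-seq on the right and no error shown. The red zpg segment is 11.3% at no HS and 14.8% at 38 h AHS in the RNA-seq, and 14.3% and 19.3% in the Ribo-seq, while Inx2 is the largest segment throughout.

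Within the cadherin complex the 3 core components were steady and p120ctn was the exception. E-cadherin mRNA from shg (FBgn0003391, 2R 21049654-21057197, minus strand) was 109 FPKM with no HS and then 85.7 (0.5 h), 106 (5 h), 103 (9 h), 95.4 (18 h), 99.8 (28 h) and 104 FPKM (38 h AHS). Its footprints were 89.6, 74.4, 97.6, 118, 84.0, 92.2 and 91.1 FPKM. The lowest mRNA value followed the heat shock (log2 -0.35, -0.74 to 0.04) and the highest footprint value was at 9 h AHS (log2 0.39, -0.05 to 0.84), neither past the call. Among all pairs of times the footprint bounds of shg lay apart for 0.5 h against 9 h AHS. By 38 h AHS shg was back at log2 -0.08 (-0.47 to 0.32) by RNA-seq and 0.02 (-0.42 to 0.47) by Ribo-seq, so both intervals lie inside 1.6-fold in either direction.

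Levels of arm, the beta-catenin gene that also transmits the Wingless signal (FBgn0000117, X 1891401-1900646, minus strand), varied least of the 7. They were 245, 224, 239.7, 255, 253, 266 and 250.0 FPKM in the RNA-seq from no HS to 38 h AHS and 281, 333, 292, 324, 315, 283 and 288 in the Ribo-seq. Over the 6 time points of differentiation the highest value was 1.11 times the lowest in the RNA-seq and 1.15 times in the Ribo-seq. Against a median ratio of 1.24 over 5842 genes, 6.54% of genes varied less than arm in the RNA-seq, and against a median of 1.46 over 5559 genes, 2.45% varied less in the Ribo-seq. The end of arm overlaps that of mRpL16 on the other strand, and the RNA-seq table gives the pair 1 joint locus.

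The alpha-catenin gene alpha-Cat (FBgn0010215, 3L 23318646-23338100, minus strand) was likewise flat, at 142, 144, 144, 156, 151, 162 and 143 FPKM in the RNA-seq. Its footprints were lowest at no HS, 203 FPKM, and then 239.9, 243, 265, 247, 259 and 221 FPKM. They were above the no HS value at all 6 later times, but the bounds overlapped in all 15 pairs of the 6 time points of differentiation, and at the maximum, 9 h AHS, the log2 change was 0.38 (-0.13 to 0.90). The ratio of alpha-Cat to arm was between 0.571 and 0.643 in the RNA-seq at all 7 times. The ratio of arm to shg was 2.24 (1.70 to 2.95) at no HS and 2.41 (1.83 to 3.17) at 38 h AHS in the RNA-seq and 3.13 (2.30 to 4.26) and 3.16 (2.33 to 4.3) in the Ribo-seq.

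Footprints on p120ctn (FBgn0260799, 2R 4595288-4609492, plus strand), whose product is known from mammals to stabilise cadherins and is dispensable in flies, rose early and then returned. They stood at 52.9 FPKM with no HS and 55.7 after 0.5 h, were high with 90.9 (5 h) and 88.2 FPKM (9 h), and then came to 74.4 (18 h), 54.3 (28 h) and 54.2 FPKM (38 h AHS). The high values were those of the cystoblast and earliest cyst times, and their bounds did not overlap those at no HS, 0.5, 28 or 38 h AHS. The increase over no HS was 1.72-fold at 5 h (log2 0.78, 0.34 to 1.23) and 1.67-fold at 9 h AHS (log2 0.74, 0.29 to 1.18). From 9 to 38 h AHS the footprints fell (log2 -0.70, -1.15 to -0.26).

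The mRNA of p120ctn followed a similar course, at 86.0, 96.8, 112, 132, 114, 107 and 88.1 FPKM from no HS to 38 h AHS. The bounds at 5 and 9 h AHS overlapped in both assays, so no difference in peak time can be read. The mRNA maximum at 9 h AHS was 1.54-fold the no HS value (log2 0.62, 0.24 to 1.01), which was under the fold threshold although the bounds, 69.6 to 102 and 108 to 157 FPKM, did not overlap. By 38 h the level was back at log2 0.04 (-0.35 to 0.42). The ratio of p120ctn to shg was 0.787 (0.600 to 1.03) at no HS, 1.28 (0.979 to 1.67) at 9 h and 0.85 (0.649 to 1.11) at 38 h AHS in the RNA-seq, and 0.591 (0.433 to 0.805), 0.749 (0.552 to 1.02) and 0.595 (0.435 to 0.813) in the Ribo-seq. At 5 h AHS the ratio was 1.06 (0.808 to 1.38) by RNA-seq and 0.932 (0.687 to 1.26) by Ribo-seq. The intervals at 5, 9 and 38 h overlap those at no HS in both assays.

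**Figure D3:**
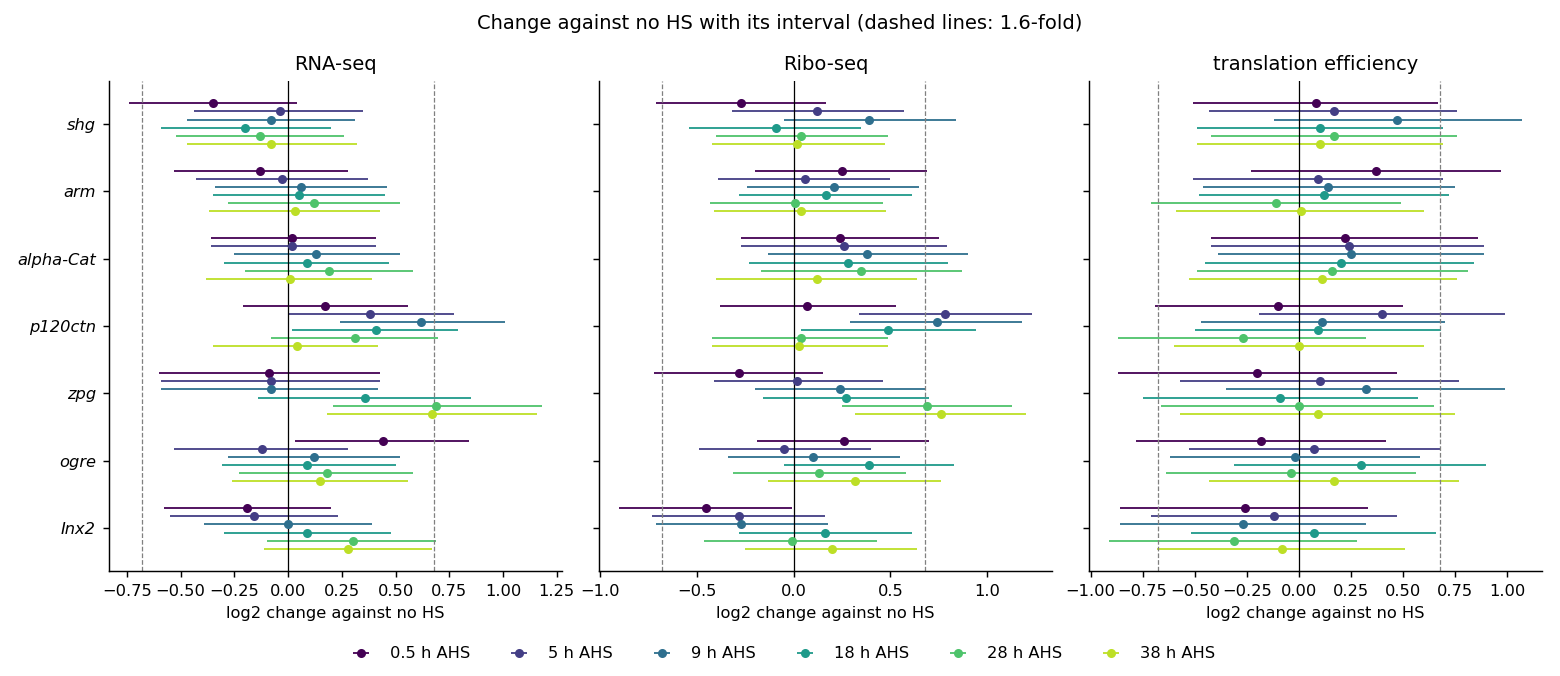
Log2 change against no HS (x axis) of each of the 7 genes (rows) at 6 times after heat shock (colours), in the RNA-seq, the Ribo-seq and translation efficiency, with lines for the interval of 2 standard errors from the deposited bounds and dashed lines at 1.6-fold. The points past a dashed line are zpg at 28 h AHS in the RNA-seq, zpg at 28 and 38 h AHS and p120ctn at 5 and 9 h AHS in the Ribo-seq, and none in translation efficiency.

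Counted over the set, the members called against no HS were few and all were called higher. By RNA-seq, 0 of 7 passed after 0.5 h AHS, where 6.83% of all genes tested did. The later counts were 0 for each of 5, 9 and 18 h AHS, beside 1.56%, 2.46% and 1.41% of all genes, then 1 at 28 h (background 1.93%) and 0 at the final 38 h (background 2.34%). By Ribo-seq, 0 of 7 passed after 0.5 h (background 15.0%), 1 at 5 h (7.72%), 1 after 9 h (12.2%), 0 after 18 h (4.53%), 1 after 28 h (6.57%) and 1 after 38 h AHS (7.89%). A count of 1 among 7 genes says nothing about the set as a whole. From 9 to 38 h AHS 1 of 7 was called in the RNA-seq, zpg upward, against 4.54% of all genes, and 1 of 7 in the Ribo-seq, p120ctn downward, against 15.9%.

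Bounds lay apart for at most 2 of 7 members in each comparison below. Against no HS they were apart for 1 of 7 members in the RNA-seq both at 9 h (2.82% of genes tested) and at 28 h AHS (1.88%). By Ribo-seq the count was 1 of 7 for 5 h (3.06% of genes), for 9 h (6.18%), for 28 h (2.75%) and for 38 h AHS (3.14%). It was 0 at 0.5, 5, 18 and 38 h by RNA-seq and at 0.5 and 18 h by Ribo-seq. For these times no share over all genes is given, so the counts of 0 are not read as a result about the members. Between 9 and 38 h AHS they were apart for 2 of 7 in the RNA-seq (zpg and p120ctn, 5.25% of genes) and for 1 in the Ribo-seq (9.28%). Over all 15 pairs of the 6 time points of differentiation, zpg had 5 pairs apart by RNA-seq and 4 by Ribo-seq and p120ctn had 2 and 6, whereas shg, arm, alpha-Cat, ogre and Inx2 had 0 in both. Among all genes 1.82% of such pairs were apart by RNA-seq and 3.68% by Ribo-seq.

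The order of the levels changed at 1 place in the mRNA. At no HS the order from the highest was Inx2, arm, ogre, alpha-Cat, shg, p120ctn and zpg, and at 38 h AHS zpg had moved from the last to the fifth place, above shg and p120ctn. Of neighbours in this order, only arm and ogre had bounds that lay apart at either time. In the Ribo-seq the order at no HS was Inx2, ogre, arm, zpg, alpha-Cat, shg and p120ctn, and zpg passed arm by 38 h AHS. There Inx2 and ogre, alpha-Cat and shg, and shg and p120ctn lay apart at both times, and the other neighbours did not.

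Translation efficiency, here Ribo-seq FPKM divided by RNA-seq FPKM, was higher for each of the 3 innexins than for each of the 4 adhesion genes at all 7 times, and it was not called changed for any member. The intervals of alpha-Cat and of arm overlapped that of Inx2 at all 7 times, as did those of alpha-Cat and ogre, while alpha-Cat and zpg lay apart at no HS, 9 and 38 h AHS. The intervals of p120ctn overlapped none of the innexins' at any time. At no HS it was 2.8 (2.02 to 3.88) for zpg, 2.2 (1.64 to 2.95) for ogre and 2.06 (1.54 to 2.76) for Inx2. For the adhesion genes it was 1.43 (1.04 to 1.96) for alpha-Cat, 1.15 (0.855 to 1.54) for arm, 0.82 (0.614 to 1.10) for shg and 0.616 (0.459 to 0.825) for p120ctn. The median over 5487 genes was 1.43, and 80.5% of them lay below zpg and 10.0% below p120ctn. Since the RNA-seq value is per transcript length and the Ribo-seq value per coding length, the efficiency of a gene also depends on how the 2 lengths were set. Whether these lengths were the same at all times is not given in the sources used here.

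At 38 h AHS the efficiencies were 2.98 for zpg, 2.48 for ogre, 1.95 for Inx2, 1.54 for alpha-Cat, 1.15 for arm, 0.878 for shg and 0.615 for p120ctn, around a median of 1.36. The order of the 7 was that at no HS. The largest departures from no HS were at 9 h AHS for shg, 0.82 to 1.14 (log2 0.47, -0.12 to 1.07), and at 5 h for p120ctn, 0.616 to 0.812 (log2 0.40, -0.19 to 0.99). For zpg the log2 change in efficiency was 0.32 (-0.35 to 0.99) at 9 h and 0.09 (-0.57 to 0.75) at 38 h AHS. None of the 7 was called at 0.5, 5, 9, 18, 28 or 38 h AHS, where 5.34%, 4.63%, 10.5%, 3.43%, 6.01% and 6.76% of all genes were, and all 42 intervals included 0. Of these, 35 reached 1.6-fold in 1 direction, so those intervals still hold a change of that size.

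**Figure D4:**
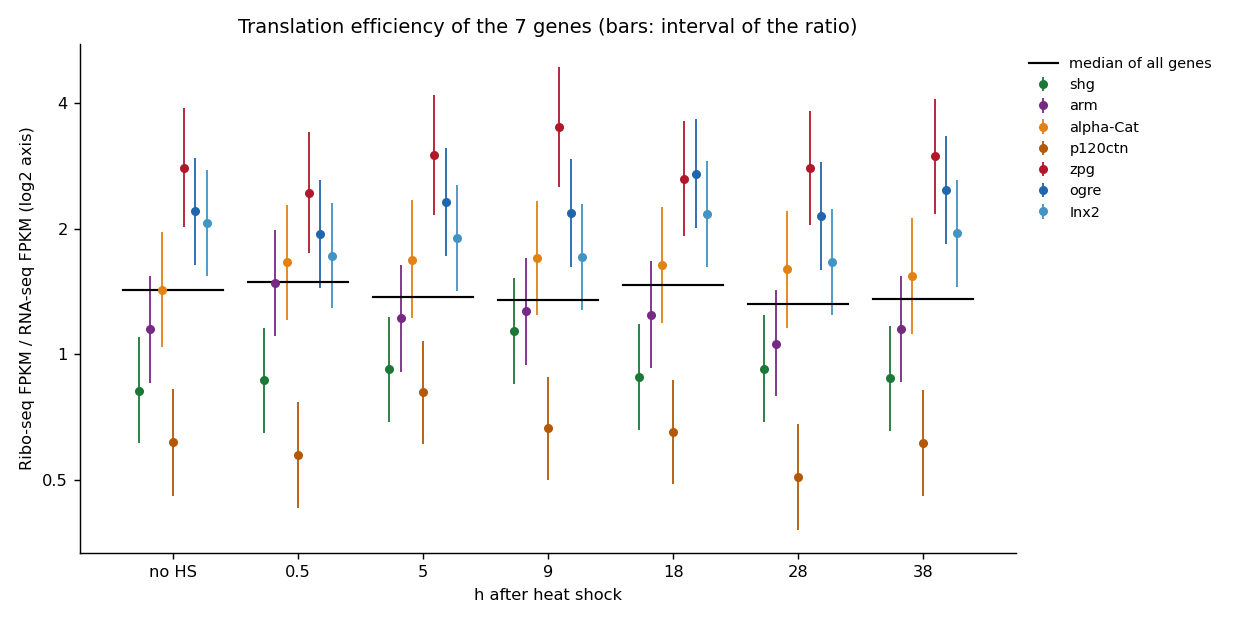
Translation efficiency (Ribo-seq FPKM over RNA-seq FPKM, y axis on a log2 scale) of the 7 genes (coloured points, bars for the interval of the ratio) at no HS and at 6 times after heat shock (x axis, in h), with a black line for the median of all genes above the FPKM minimum in both assays. The 3 innexins lie above the median and shg and p120ctn below it at each time; zpg is at 2.8 at no HS and 2.98 at 38 h AHS, p120ctn at 0.616 and 0.615.

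The genes around the complex were followed in 7 lists, of which 87 genes were measured in addition to the 7 members: partners of the adherens junction, other cadherins, other innexins, trafficking of E-cadherin (exocyst, Rab5, Rab11 and the AP-1 adaptor), Wingless signalling, integrin adhesion and the septate junction. In the RNA-seq 0 of 72 tested were called at 9, 18, 28 and 38 h AHS and 1 at 5 h, the Wingless receptor gene fz, which was lower. The shares over all genes in these comparisons were 2.46%, 1.41%, 1.93%, 2.34% and 1.56%. At 0.5 h AHS 1 was higher and 3 were lower of 72 (5.56%, beside 6.83% of all genes). In the Ribo-seq 2 rose and 3 fell of 69 at 9 h AHS (7.25%), and 0 rose and 2 fell of 68 at 38 h (2.94%). These shares were below those over all genes in the same comparisons, 12.2% and 7.89%.

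Of the 14 adherens junction partners tested by RNA-seq and 13 by Ribo-seq, 0 were called at any time, with list medians between -0.13 and 0.22 on the log2 scale. This list holds baz, par-6 and aPKC of the polarity complex, the actin linkers Vinc and cno, and Rap1, a GTPase. The 14 genes of the septate junction, an occluding junction of epithelia, gave 0 calls as well. Among 15 trafficking genes, Sec15, an exocyst subunit, had higher footprints at 9 h AHS, 26.3 to 44.3 FPKM (log2 0.75, 0.29 to 1.22), and the other 14 were not called at any time. Over all genes, the shares called from 0.5 to 38 h AHS were 1.41% to 6.83% by RNA-seq and 4.53% to 15.0% by Ribo-seq. With lists this small, counts of 0 or 1 say nothing about a list as a whole.

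In the Wingless list, footprints at 9 h AHS were lower for Axn and higher for Apc, which both encode scaffolds of the complex that marks beta-catenin for destruction. Axn went from 31.1 to 13.0 FPKM with overlapping bounds (log2 -1.26, -3.04 to 0.52), and Apc from 11.5 to 18.6 with bounds apart (log2 0.69, 0.23 to 1.15). At 38 h pygo, a nuclear co-activator of the pathway, was at 9.82 FPKM against 19.6 at no HS (log2 -1.0, -1.62 to -0.37). Among the integrin genes, footprints on Pax, a focal adhesion adaptor, went from 168 to 93.0 FPKM at 9 h AHS (log2 -0.85, -1.43 to -0.27). Ilk, integrin-linked kinase, was called lower at 0.5, 5, 9, 28 and 38 h AHS and higher at 18 h, with intervals from -12.18 to 10.04 at 9 h and from -13.88 to 11.25 at 38 h, so no direction can be read for it.

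Among the other cadherins 5 of 15 passed 10 FPKM in the RNA-seq and 2 or 3 in the Ribo-seq, and calls were made at 0.5 and 28 h AHS only. Thus most genes of the fly's cadherin family other than shg were near or below the FPKM minimum in these ovaries.

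Markers of other cell types in the whole ovary were measured beside these genes. Of 12 escort and cap cell markers, 7 exceeded 10 FPKM at no HS in the RNA-seq, among them tj (108 FPKM at no HS, 119 at 38 h AHS), whereas the terminal filament and cap cell genes en, inv and Lmx1a stayed below 1 FPKM in both assays. Their summed level was between 353 and 408 FPKM in the RNA-seq, and none of the 6 that could be tested was called from 5 to 38 h AHS there. At 0.5 h Wnt4 was called lower (14.5 to 4.95 FPKM), while LamC was at 94.6 FPKM against 29.9 at no HS, so the sum hides opposite changes. In the Ribo-seq, with 5 tested, tj, Wnt4 and zfh1 were called lower at 0.5 h (15.0% of all genes called) and Wnt4 at 38 h AHS (7.89%). The 13 muscle markers of the ovarian sheath summed to 2072 FPKM at no HS, 1235 at 5 h and 2252 at 38 h AHS by RNA-seq, while their footprints summed to 799, 578 and 536 FPKM. At 9 h AHS, where p120ctn footprints were high, the muscle sum was at its lowest in the Ribo-seq, 416 FPKM. The germline sum in the RNA-seq was also lowest at 9 h, 805 FPKM, but was already 827 at 0.5 h and 825 at 5 h AHS. In the Ribo-seq the germline sum was 1329.7 FPKM at 9 h against 1353 at no HS. Which cells the p120ctn footprints came from was not tested.

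Over the 12 values of both assays (6 time points each, log2 FPKM centred within an assay), the members fell into no common course. The correlation was 0.82 between ogre and Inx2, 0.73 between zpg and Inx2, 0.62 between zpg and ogre, and 0.68 between arm and alpha-Cat, and it was -0.65 between shg and Inx2 and -0.43 between zpg and p120ctn. These are descriptions over points that share libraries. For shg, arm, alpha-Cat, ogre and Inx2 the bounds overlapped in all 15 pairs of time points in both assays. Correlations that involve these genes, here and below, therefore rest on differences within the bounds, and no shared course can be read from them. Among 5082 genes above 10 FPKM throughout, the courses most like that of zpg were those of sunn, a gene of meiotic cohesion (r = 0.986, 39.0 FPKM at no HS and 57.3 at 38 h AHS in the RNA-seq), and CG32625 (r = 0.985, 81.0 and 159.7 FPKM).

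The nearest courses to p120ctn were those of PIG-U (r = 0.972), a subunit of the enzyme that attaches GPI anchors, and MetRS (r = 0.962), a methionyl-tRNA synthetase. For Inx2 they were CG32365 (r = 0.972) and CG5065 (r = 0.971), and for ogre CG8173 (r = 0.939) and Cyp1 (r = 0.923), a cyclophilin. For shg they were CG10383 (r = 0.953) and fwd (r = 0.929), a phosphatidylinositol kinase, for arm Hpr1 (r = 0.904) and nod (r = 0.889), a kinesin-like protein, and for alpha-Cat CG17683 (r = 0.97) and Rai1 (r = 0.966). No member was among the nearest genes of another.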

How the data were processed

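The authors trimmed reads with Trim Galore, removed reads of non-coding RNAs with Bowtie2 (RNA-seq) or Bowtie (Ribo-seq, after collapsing duplicates), mapped to dm6 with STAR and estimated with Cuffdiff 2.2.1 the deposited FPKM values and their 95% bounds, pooled over 2 replicates. The normalization between libraries and the use of strand are not given in the sources used here, and read depth is unknown from FPKM values. Per-sample columns left unmapped numbered 0.

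From these values changes, intervals (log2 ratio with 2 standard errors taken from each bound) and translation efficiency were computed with Python 3.11.15, numpy 2.4.6 and pandas 2.3.3. Genes without an OK status, or on the study's list of heat shock and contaminating genes, were left out, leaving 13742, and for footprints and efficiency also 159 genes more than 3-fold different at 0.5 h AHS. A call needed over 1.6-fold and over 10 FPKM, following the study's thresholds without its Cuffdiff p. Alternatives were a fold of 2, a minimum of 20 FPKM or none, a pseudocount of 1, rescaling to the same median, bounds apart, and 0.5 h AHS as baseline. Genes were named by rule: the 7 members, the other innexins, up to 3 called genes per list and assay at 9 or 38 h AHS, and the 2 genes with the most similar course to each member. Named outside that rule, after their values were seen, were Rexo5, mRpL16, bou, fz, list examples and markers, and the ratios of zpg to piwi and to the summed markers were added then too. Members and lists were chosen with earlier results of these data known. Of the integrin list, Fermt1 and Fermt2 matched no row. Positions are those of Ensembl's BDGP6 annotation, counted from 1. Sequences and coding sequences come from RefSeq.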

Additional observations from a re-analysis of the deposited data

How the results depend on the processing

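Over 35 pairs of member and later time point, 1 was called by RNA-seq and 4 by Ribo-seq. Over all genes the shares called at those times were 1.41% to 2.46% by RNA-seq and 4.53% to 12.2% by Ribo-seq. Such small counts say nothing about the set as a whole. A fold threshold of 2 left 0 calls in either assay. Rescaling to the same median left 0 RNA-seq calls, since zpg at 28 h AHS dropped to log2 0.66, and 0.5 h AHS as baseline gave 2. All other alternatives kept the counts of the members within 1.5 times, and translation efficiency had 0 calls under each. For the 87 listed junction genes, 1 call in the RNA-seq became 0 with a fold of 2 or a minimum of 20 FPKM, 22 without a minimum and 12 against 0.5 h AHS. The 15 calls in the Ribo-seq became 8 with a fold of 2, 9 with the minimum of 20 FPKM, 53 without a minimum, 7 with bounds apart and 52 against 0.5 h AHS. No share over all genes is given for these alternatives, so the counts are not read as a result about the lists. Of 63 log2 changes of the members, 24 moved by more than 1 standard error against 0.5 h AHS and 0 with a pseudocount or rescaling. No called value changed sign, but most of the 63 were not called, and some of those did against 0.5 h AHS. At 9 h AHS, for example, shg mRNA went from log2 -0.08 to 0.27 and ogre mRNA from 0.12 to -0.32. No paired analysis was possible because the deposited columns hold 1 value over both replicates, and for the same reason no replicate could be left out. In these genes changes under about 1.6-fold mostly lay within the bounds. Read depth is unknown, and its part in the width of the bounds was not tested.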
